A study of Mus musculus with 10 samples.

Results

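Potassium channel genes were taken here as all genes whose symbol begins with Kcn in the platform's probe annotation. Only probe sets with exactly 1 symbol were used, and where a gene had several, the one of highest average signal stood for it. This gave 92 potassium channel genes among 19938 genes tested. The samples were mouse neurons of a 129Sv-C57Bl/6 background, labelled as terminally differentiated, whose RNA was hybridised to Affymetrix whole-transcript arrays. In 5 of them SP600125, which blocks JUN N-terminal kinases (JNK), had been applied at 25 µM in 3 applications 2 hours apart, and in the other 5 the solvent DMSO alone. Both groups have biological replicates a to e. Letters a and b belong to drug batch 1 and letters c to e to drug batch 2, which the study's design text gives as batches of the inhibitor, and the DMSO samples carry the same batch numbers. The labels do not state separate cultures for the replicates, so the p-values rest on the spread among these samples alone, and that spread could be technical. The labels name no allele or other agent that differed between the groups.

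Potassium channels let potassium leave a neuron and so set its resting potential, end each action potential and limit repetitive firing. Voltage-gated pore subunits open on depolarisation, inward rectifiers and tandem-pore leak channels hold the membrane near rest, and calcium-gated channels couple spiking to calcium entry. Auxiliary subunits alter the gating and surface delivery of the pores, and modifier subunits act only together with a conducting pore. JNK phosphorylates JUN, a component of the AP-1 transcription factors, and ATF2, which binds related DNA sequences.

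After SP600125, 24 of the 92 potassium channel genes fell, 16 rose and 52 did not pass the test (limma, adjusted p under 0.05 over all 19938 genes). Those that fell included the acid-sensitive leak channel Kcnk9, the mechanically gated leak channel Kcnk10, the auxiliary subunit Kcnab2, the M-current subunit Kcnq5, the large-conductance calcium-gated pore Kcnma1 and the voltage-gated pore Kcna1. Kcnk4, another mechanically gated leak channel, and Kcnmb1, an auxiliary subunit of the Kcnma1 pore, showed the 2 largest rises. The changes were modest: the largest was a fall by 0.58 on the log2 scale, none reached 2-fold, and the median size among called genes was 0.31. The share that fell was 26.1%, against 29.9% of all genes, and the share that rose was 17.4%, against 17.0% of all genes, so both lay near the background. Falls of at least 0.4 were called in 7 members (7.61%, against 7.48% of all genes), and such a rise in 1 (1.09%, against 2.79%). The median log2 change of the 92 genes was -0.01, against -0.03 for all genes. The split of calls moved with the scaling: 4 rose and 36 fell with arrays centred on the median of all probe sets, 21 rose and 21 fell with centring on the named genes, and 4 rose and 24 fell after quantile normalization. The median change of all genes under these scalings was -0.13, 0.01 and -0.05, in that order. Leaving out DMSO replicate a, or DMSO replicate e, reduced the rises to 10. Shares of all genes are not given here for these scalings or for single arrays left out, so these counts show no trait of the members. Without both b arrays, 17 rose (all genes 17.1%) and 29 fell (all genes 31.6%).

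**Figure D1:**
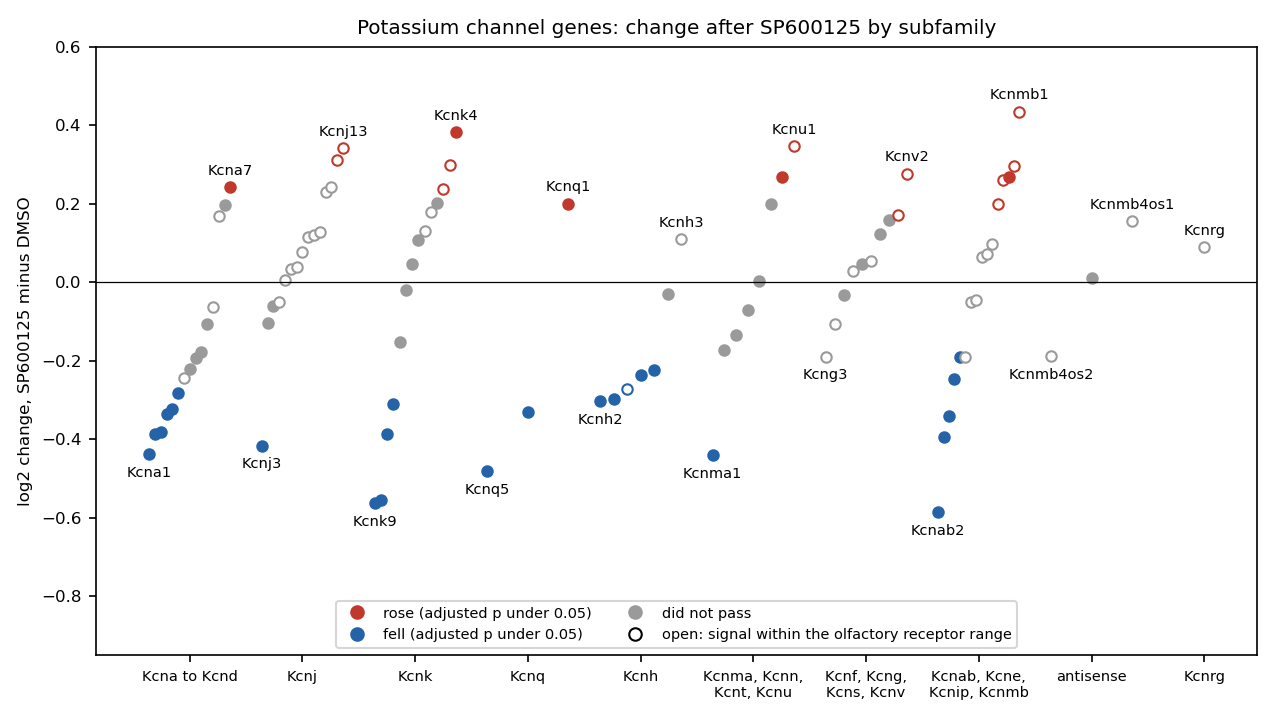
Log2 change (SP600125 minus DMSO, values as deposited) of each of the 92 potassium channel genes, by subfamily. Red points rose, blue points fell and grey points did not pass at adjusted p under 0.05, and open circles had a signal within the olfactory receptor range. The lowest points are Kcnab2, Kcnk9 and Kcnk10, all below -0.55, and no point exceeds 0.44.

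The direction followed the signal. The table holds no detection calls, so the range of signal without expression was taken from 1027 olfactory receptor genes, which neurons hardly express, and its upper end was set at their 95th percentile (5.42 log2). Above it lay 51 of the 92 potassium channel genes. Of these, 23 fell and 5 rose (45.1% and 9.80%), against 47.3% and 7.93% of the 12055 genes above the range, and their median change was -0.18, against -0.16 for those genes. Of the 41 members not above it, 1 fell and 11 rose (2.44% and 26.8%), against 3.3% and 30.9% of the 7883 other genes, and the medians were 0.11 and 0.13. Among members with a mean above 7, 9 of 10 fell, Kcnk2 being the exception, against 62.1% of the 5978 genes with such a mean. The olfactory receptor probe sets themselves read higher after SP600125, with array medians of 3.86 to 3.95 log2 against 3.58 to 3.75 log2 on DMSO arrays. The spread over genes was smaller on them, with an SD of 1.63 to 1.71 log2 on SP600125 arrays and 1.76 to 1.84 log2 on DMSO arrays. What part these differences between arrays play in the rises of dim and the falls of bright channel genes was not tested.

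**Figure D2:**
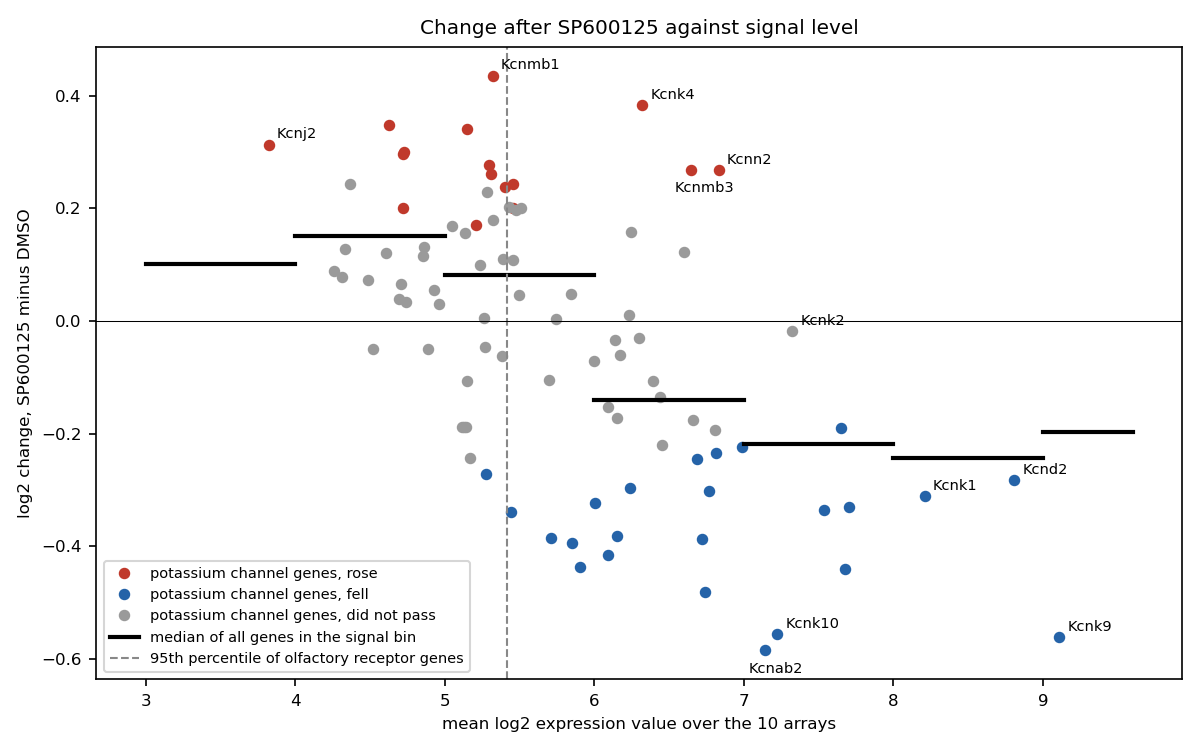
Log2 change (SP600125 minus DMSO) against the mean log2 value over the 10 arrays for the 92 potassium channel genes, with black bars for the median of all genes in each bin of signal (the outer bins open-ended) and a dashed line at the olfactory receptor 95th percentile (5.42). Rises lie mainly left of the line and falls right of it, with Kcnk4, Kcnmb3 and Kcnn2 as rises well to the right of it.

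The arrays were checked for samples that stand apart. Correlations across genes ran from 0.991 to 0.995 among SP600125 arrays, from 0.9935 to 0.9966 among DMSO arrays and from 0.9816 to 0.9926 between the groups. Replicate b stood between the groups in many channel genes. The mean over the 24 fallen members was 6.55, 6.88, 6.68, 6.60 and 6.63 log2 on SP600125 arrays a to e, against 7.01, 6.85, 7.10, 7.12 and 7.09 log2 on DMSO arrays a to e. SP600125 b and DMSO b thus differed little, in the direction opposite to every other letter. Over the 16 risen members, SP600125 b was 5.43 log2 and DMSO b 5.30 log2, in the same direction as every other letter. DMSO b was the highest DMSO array there. Whether the labelling or the treatment of the b samples differed cannot be settled from the labels, so the values over 5 arrays a group carry that doubt. Counts, and the values of some genes in which b stood out, are therefore also given without both b arrays. Replicate b was set apart after these values were seen, and it ran against the falls as a set. Leaving it out thus tends to enlarge those falls and lower their p-values, which are no separate evidence for them.

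The neuronal identity of the samples was checked on markers. All 8 neuronal markers were above the olfactory receptor range, and 7 fell after SP600125 (median -0.46). Their mean level was 8.72 to 9.30 log2 on SP600125 arrays and 9.05 to 9.43 log2 on DMSO arrays. Markers of other cells were present too: 5 of 6 astrocyte (Gfap included), 5 of 6 oligodendrocyte lineage, 5 of 6 fibroblast, endothelial and mural and all 5 progenitor markers were above the range, and 3, 3, 2 and 2 of the lists' genes fell, with no rises (S100b, Mog and Pecam1 were within the range). Mean levels on SP600125 and DMSO arrays were 7.69 to 7.84 and 7.82 to 7.90 log2 for the astrocyte list, and 7.24 to 7.35 and 7.42 to 7.49 log2 for the oligodendrocyte list. They were 8.11 to 8.23 and 8.30 to 8.48 log2 for the fibroblast, endothelial and mural list, and 7.33 to 7.42 and 7.69 to 7.76 log2 for the progenitor list. Of 6 microglial markers, 1 (Cx3cr1) was above the range and 4 rose, with mean levels of 4.60 to 4.83 log2 on SP600125 arrays and 4.36 to 4.60 log2 on DMSO arrays. In such bulk samples, fewer cells of a type and less RNA per cell cannot be told apart, and the part of the cell mixture in the channel gene changes was not tested.

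Promoters were read for the binding sequence of AP-1, since its component JUN is a JNK substrate. RefSeq promoters (GRCm38.p6, from 250 bases before to 50 after a start site) were found for 70 of the 92 genes, 95 promoters in all. The heptamer TGANTCA, which reads alike on both strands, occurred in 4 of the 95 (4.21%), against 7.81% of all 32851 promoters. It was in 2 of 28 promoters of members that fell (7.14%) and in 0 of 11 promoters of members that rose. The related octamer TGACGTCA, a binding sequence of CREB and ATF factors with the same letters on both strands, was in 0 of the 95 promoters, against 1.79% of all. Windows of 100 bases around the heptamer are shown, with the heptamer in capitals, for the 2 members that fell and for Kcnk2, which did not pass. The heptamer was also in a promoter of Kcne3, which did not pass either, and its shorter window (82 bases) is not shown. Kcnip3 lies at chr2:127522162-127522261, Kcnip4 at chr5:49285687-49285786 and Kcnk2 at chr1:189344264-189344363, all on the minus strand, and each is written 5′ to 3′ along the gene.
Kcnip3: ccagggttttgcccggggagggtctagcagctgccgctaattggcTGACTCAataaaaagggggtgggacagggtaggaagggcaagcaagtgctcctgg
Kcnip4: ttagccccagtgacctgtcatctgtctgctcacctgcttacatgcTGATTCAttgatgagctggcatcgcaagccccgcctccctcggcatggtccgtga
Kcnk2: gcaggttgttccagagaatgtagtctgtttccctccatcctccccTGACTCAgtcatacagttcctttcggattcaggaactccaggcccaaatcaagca
These matches describe letters in the windows and show no binding.

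Among the 15 voltage-gated pore subunits of Kcna to Kcnd, 6 fell, 1 rose and 8 did not pass, with a median change of -0.22. For this and each later subfamily, the shares over all genes were 29.9% falls and 17.0% rises. Above the olfactory receptor range they were 47.3% and 7.93%. Of the 12 Kcna to Kcnd genes above it, 6 fell, near that share, and their median was -0.25, against -0.16 for all such genes. Kcna1, a low-threshold delayed rectifier of axons, read 5.63, 5.94, 5.64, 5.66 and 5.55 log2 on SP600125 arrays a to e, against 5.95, 5.94, 6.34, 6.37 and 6.01 log2 on DMSO arrays a to e. SP600125 b stood level with DMSO a and b, and the other 4 SP600125 arrays lay below all DMSO arrays. The log2 change was -0.44 (SE 0.10, adjusted p = 0.00356), and -0.55 without both b arrays. Kcna4, an inactivating A-type pore, and Kcna6, a further delayed rectifier, fell by 0.39 (adjusted p = 0.00498) and by 0.38 (adjusted p = 0.0137). For Kcna4 every SP600125 array was below every DMSO array, while for Kcna6 SP600125 b and e lay above DMSO b.

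Kcnd2 carries the somatodendritic A-type current. It read 8.59, 9.10, 8.60, 8.48 and 8.55 log2 on SP600125 arrays a to e, against 9.02, 8.75, 8.99, 8.98 and 8.99 log2 on DMSO arrays a to e. SP600125 b was the highest of all 10 arrays and DMSO b the lowest of its group, and the remaining arrays separated fully. The change was -0.28 (SE 0.10, adjusted p = 0.0347), and -0.44 without both b arrays (adjusted p = 0.000152). The call was lost without any 1 of the other 8 arrays. Its relative Kcnd3 fell by 0.34, with every SP600125 array (7.29 to 7.48 log2) below every DMSO array (7.63 to 7.79 log2), and the slowly activating delayed rectifier Kcnb2 fell by 0.32. Both were named after their values were seen.

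The axonal delayed rectifier Kcna2 (-0.11, adjusted p = 0.200) and the fast-spiking pore Kcnc1 (-0.19, adjusted p = 0.0963) did not pass, and Kcnc1 passed without both b arrays at -0.30 (adjusted p = 0.0103). It also passed without SP600125 b or DMSO b alone, at -0.26 each. The 1 rise in the subfamily was Kcna7, known mainly from muscle (0.24, adjusted p = 0.0391), which lost its call when any of 8 single arrays was left out, the exceptions being DMSO b and SP600125 c.

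Of the 15 inward rectifiers (Kcnj), only 3 were above the olfactory receptor range, and 1 fell, 2 rose and 12 did not pass (median 0.08). Kcnj3 forms G-protein-gated channels that open when inhibitory receptors are activated. Its values were 5.71, 6.22, 5.95, 5.74 and 5.78 log2 on SP600125 arrays a to e, against 6.25, 5.95, 6.51, 6.44 and 6.34 log2 on DMSO arrays a to e. The b arrays stood in reverse order, and the other letters separated. Kcnj3 fell by 0.42 (SE 0.11, adjusted p = 0.00835), and by 0.59 without both b arrays. Kcnj6, its usual pore partner, did not pass at 0.04 (adjusted p = 0.661) and had a signal within the olfactory receptor range. The glial inward rectifier Kcnj10 was 5.64 ± 0.16 log2 after SP600125 and 5.75 ± 0.09 log2 in DMSO (SD, n = 5 each), and did not pass at -0.10 (adjusted p = 0.199). The 2 rises, Kcnj13 (0.34, adjusted p = 0.0149), a channel of transporting epithelia, and Kcnj2 (0.31, adjusted p = 0.0151), a strong inward rectifier, were in genes within the olfactory receptor range.

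The 14 tandem-pore leak channels (Kcnk) divided, with 4 falls, 3 rises and 7 genes that did not pass (median 0.08). Kcnk9, an acid-sensitive leak channel of neurons, read 8.58, 9.53, 8.79, 8.60 and 8.65 log2 on SP600125 arrays a to e, against 9.41, 9.14, 9.50, 9.49 and 9.42 log2 on DMSO arrays a to e. SP600125 b was the highest array of all, and the other SP600125 arrays lay below every DMSO array. The change was -0.56 (SE 0.15, adjusted p = 0.00791), and without both b arrays it was -0.80 (adjusted p = 1e-05). Kcnk3, the closest acid-sensitive relative, was 6.53 ± 0.09 log2 after SP600125 and 6.91 ± 0.14 log2 in DMSO (SD, n = 5 each), a fall by 0.39 (adjusted p = 0.00145) in which no SP600125 array reached a DMSO array.

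The mechanically gated leak channels are Kcnk2, Kcnk4 and Kcnk10, and they differed in direction. Kcnk10 read 6.68, 7.14, 6.97, 6.98 and 6.95 log2 on SP600125 arrays a to e, against 7.38, 7.26, 7.61, 7.63 and 7.62 log2 on DMSO arrays a to e. All SP600125 arrays were below all DMSO arrays, and the change was -0.56 (SE 0.08, adjusted p = 0.000322), so the linear level fell by 32.0%. Kcnk4 read 6.69, 6.70, 6.37, 6.30 and 6.48 log2 on SP600125 arrays a to e, against 6.12, 6.30, 6.15, 6.10 and 5.96 log2 on DMSO arrays a to e. All its SP600125 arrays were higher than all DMSO arrays, although SP600125 d and DMSO b differed only beyond the second decimal. The change was 0.38 (SE 0.07, adjusted p = 0.000802), or 30.4% higher. Kcnk2 was 7.31 ± 0.12 log2 after SP600125 and 7.33 ± 0.07 log2 in DMSO (SD, n = 5 each), a difference of -0.02 that did not pass (adjusted p = 0.838). The differences between these 3 changes were not tested.

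Other leak channels moved less. The weakly conducting Kcnk1 fell by 0.31 (named after its values were seen). Kcnk18, a channel of sensory neurons, and Kcnk7, which forms no known current, had rises of 0.30 (adjusted p = 0.0346) and 0.24 (adjusted p = 0.0167), both with signals within the olfactory receptor range. Kcnk18 lost its call without any 1 of DMSO a, c, d and e and SP600125 d and e, and Kcnk7 lost it without DMSO a.

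**Figure D3:**
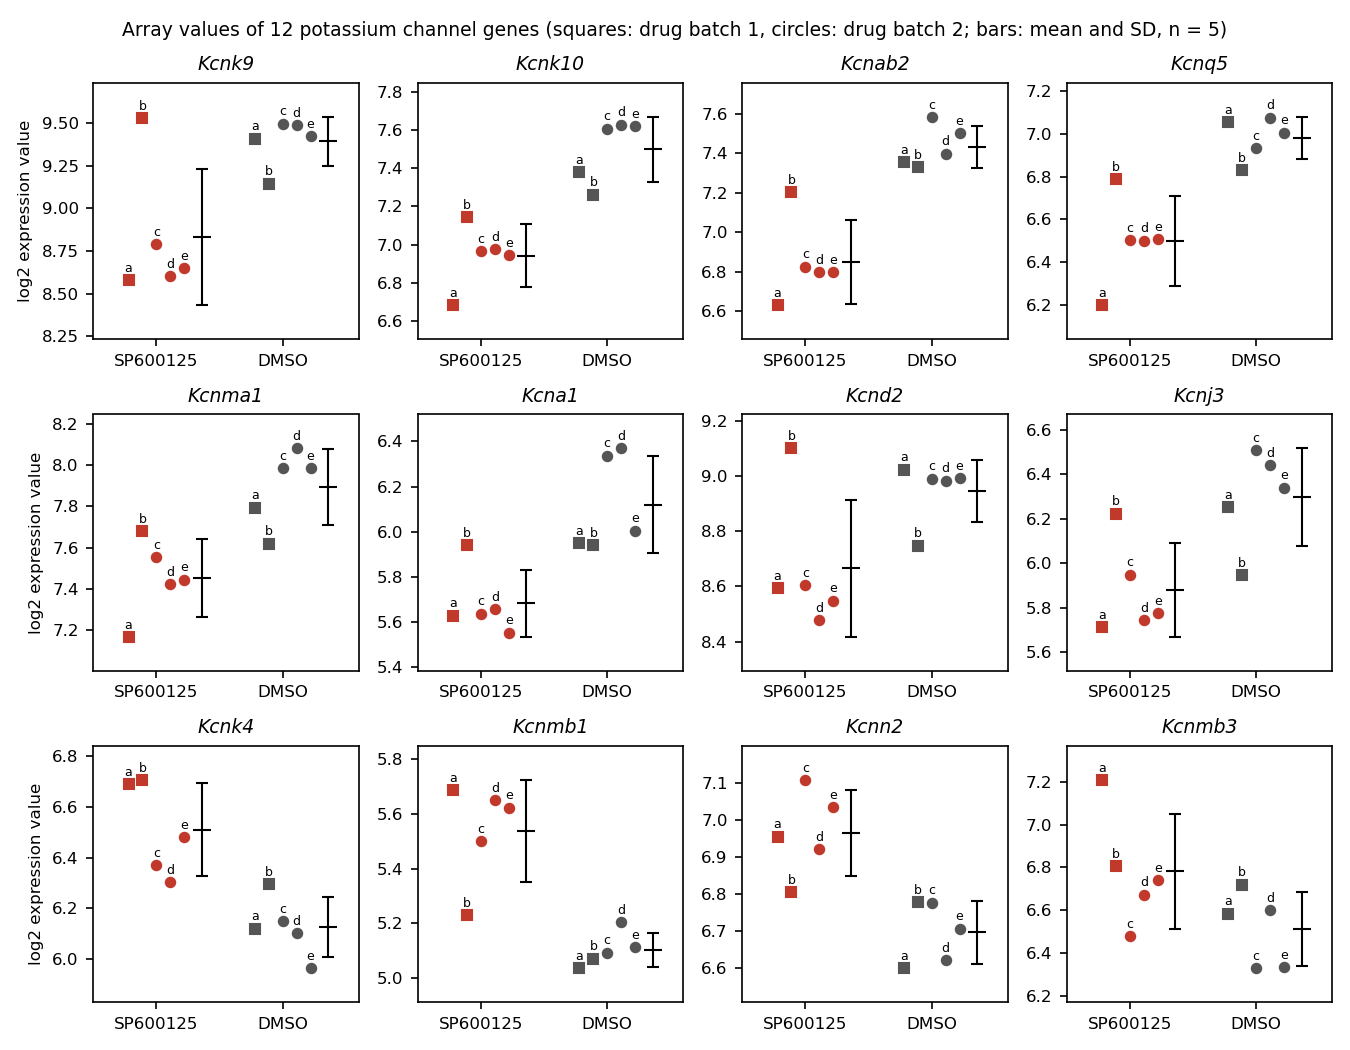
Log2 values on every array for 12 potassium channel genes, SP600125 left of DMSO in each panel, with squares for drug batch 1, circles for drug batch 2, letters for the replicates and bars for the mean and SD of 5 arrays. SP600125 b sits at the top of its group in all 8 fallen genes shown in the upper panels, and Kcnk4, Kcnmb1 and Kcnn2 lie higher on every SP600125 array than on any DMSO array.

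All 3 measured Kcnq genes passed. Kcnq5 and Kcnq3 form the M-current, a slow brake on firing that muscarinic receptors close. Kcnq5 read 6.20, 6.79, 6.50, 6.50 and 6.51 log2 on SP600125 arrays a to e, against 7.05, 6.83, 6.93, 7.08 and 7.01 log2 on DMSO arrays a to e. The groups did not overlap, although SP600125 b came close to DMSO b, and the change was -0.48 (SE 0.09, adjusted p = 0.00127). Kcnq3 read 7.30, 8.03, 7.56, 7.40 and 7.42 log2 on SP600125 arrays a to e, against 7.89, 7.56, 7.96, 7.96 and 7.98 log2 on DMSO arrays a to e. SP600125 b was the highest of all arrays, and DMSO b fell among the SP600125 arrays. The change of -0.33 (SE 0.13, adjusted p = 0.0427) lost its call without any 1 of the 8 other arrays and was -0.53 without both b arrays (adjusted p = 7.3e-05). Kcnq1, a channel of heart and epithelia, rose by 0.20 (adjusted p = 0.0176) but not without DMSO e, the lowest array, where it was 0.16.

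Of 7 Kcnh genes, which encode the ether-a-go-go, erg and elk pores, 5 fell and 0 rose (median -0.24). Of all genes, 29.9% fell. Above the olfactory receptor range, 4 of 5 Kcnh genes fell, against 47.3% of all such genes. After cyclic loess, a scaling described further below, 2 of the 7 fell, against 17.7% of all genes, and the median was -0.12. Kcnh8, an elk pore, was 6.09 ± 0.07 log2 after SP600125 and 6.39 ± 0.08 log2 in DMSO (SD, n = 5 each), with no overlap of arrays and a change of -0.30 (adjusted p = 0.00216). A second probe set of Kcnh8 changed the same way, by -0.41 (adjusted p = 0.00186 over all probe sets with 1 symbol). The erg pores Kcnh2 and Kcnh7 fell by 0.30 (adjusted p = 0.0116) and 0.27 (adjusted p = 0.0174). Kcnh7 was the 1 fallen member not above the olfactory receptor range, and it lost its call without DMSO a (-0.23). The ether-a-go-go pores Kcnh1 and Kcnh5 fell by 0.24 and 0.22 and were named after their values were seen.

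Among the 8 channels gated by calcium, sodium or pH (Kcnma1, Kcnn, Kcnt and Kcnu1), 1 fell, 2 rose and 5 did not pass. Kcnma1, whose large conductance repolarises spikes and limits transmitter release, read 7.17, 7.68, 7.55, 7.42 and 7.44 log2 on SP600125 arrays a to e, against 7.79, 7.62, 7.99, 8.08 and 7.99 log2 on DMSO arrays a to e. SP600125 b exceeded DMSO b, and the other SP600125 arrays lay below all DMSO arrays. The change was -0.44 (SE 0.09, adjusted p = 0.00201). A second Kcnma1 probe set, with a mean of 3.88 log2 well within the olfactory receptor range, changed by 0.27 the other way (adjusted p = 0.0344 over all probe sets with 1 symbol), and the mean of both probe sets did not pass at -0.09. Kcnn2, a small-conductance channel behind the afterhyperpolarisation that follows spikes, read 6.95, 6.81, 7.11, 6.92 and 7.03 log2 on SP600125 arrays a to e, against 6.60, 6.78, 6.78, 6.62 and 6.71 log2 on DMSO arrays a to e. All SP600125 arrays were higher, narrowly so for b, and the change was 0.27 (SE 0.07, adjusted p = 0.00584). Kcnu1, a sperm channel with a signal in the olfactory receptor range, rose by 0.35 (adjusted p = 0.00686).

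The 16 auxiliary subunits (Kcnab, Kcne, Kcnip and Kcnmb) gave 5 falls, 5 rises and 6 genes that did not pass. Kcnab2, a cytoplasmic beta subunit that helps Kcna pores reach the axon, read 6.63, 7.20, 6.83, 6.80 and 6.80 log2 on SP600125 arrays a to e, against 7.36, 7.33, 7.59, 7.40 and 7.50 log2 on DMSO arrays a to e. No SP600125 array reached a DMSO array, and the change was -0.58 (SE 0.09, adjusted p = 0.000484), so the linear level fell by 33.3%. Kcnip subunits are calcium sensors that raise the surface level of Kcnd pores and alter their gating. Kcnip4 read 5.57, 5.91, 5.64, 5.52 and 5.61 log2 on SP600125 arrays a to e, against 6.10, 5.93, 6.00, 6.01 and 6.18 log2 on DMSO arrays a to e. The groups did not overlap, by a narrow margin at b, and Kcnip4 changed by -0.39 (SE 0.08, adjusted p = 0.00157).

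Kcnip1 fell by 0.34 (SE 0.11, adjusted p = 0.0174), and by 0.50 without both b arrays. Its values were 5.22, 5.60, 5.17, 5.20 and 5.17 log2 on SP600125 arrays a to e, against 5.52, 5.28, 5.73, 5.76 and 5.77 log2 on DMSO arrays a to e. In drug batch 1 the change was 0.01, with SP600125 lower at a and higher at b, and in drug batch 2 it was -0.57. The difference between the batches did not pass (adjusted p = 0.478). Kcnip3, which is also known as a calcium-regulated transcriptional repressor, was 6.56 ± 0.12 log2 after SP600125 and 6.81 ± 0.12 log2 in DMSO (SD, n = 5 each). Its arrays separated within each batch, and it fell by 0.25 (adjusted p = 0.00784). Kcnmb4, the brain beta subunit of the Kcnma1 pore, fell by 0.19 (named after its values were seen) and did not pass without both b arrays.

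Kcnmb1, the beta subunit known from smooth muscle, read 5.69, 5.23, 5.50, 5.65 and 5.62 log2 on SP600125 arrays a to e, against 5.03, 5.07, 5.09, 5.20 and 5.11 log2 on DMSO arrays a to e. All SP600125 arrays were higher, with b nearest to DMSO, and the change was 0.44 (SE 0.08, adjusted p = 0.000913), or 35.2% higher. Its mean over all arrays was not above the olfactory receptor range. Kcnmb3, a further beta subunit, was 6.78 ± 0.27 log2 after SP600125 and 6.51 ± 0.17 log2 in DMSO (SD, n = 5 each), with overlapping arrays. It rose by 0.27 (adjusted p = 0.0242), and lost the call without any 1 of DMSO a, c and e and SP600125 a and e. Kcne1, a small subunit that slows Kcnq1, rose by 0.30 (adjusted p = 0.0170), but not without DMSO e (0.25). Kcnab3 and Kcne2 rose by 0.26 and 0.20 and were named after their values were seen. Kcne1, Kcnab3 and Kcne2 had signals within the olfactory receptor range.

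Of the 10 modifier subunits (Kcnf, Kcng, Kcns and Kcnv), 2 rose, 0 fell and 8 did not pass. Kcnv2, known from photoreceptors, was 5.43 ± 0.07 log2 after SP600125 and 5.16 ± 0.07 log2 in DMSO (SD, n = 5 each), with no overlap and a change of 0.28 (adjusted p = 0.00208). Kcng4 rose by 0.17 (adjusted p = 0.0385) and lost its call without any 1 of 8 single arrays, all but DMSO c and SP600125 e, and without both b arrays (0.13, adjusted p = 0.111). Kcnv2 and Kcng4 were both within the olfactory receptor range. None of the 3 antisense transcripts passed. The double-stranded target used for these arrays does not separate strands, so signal from sequence shared with a partner gene cannot be told apart. On its own probe set, Kcnd3os changed by 0.01, beside -0.34 for Kcnd3. Kcnmb4os1 changed by 0.16, beside -0.19 for Kcnmb4. Kcnmb4os2 had a change of -0.19 (adjusted p = 0.229), and Kcnrg, which in human cells interferes with the assembly of voltage-gated pores, one of 0.09 (adjusted p = 0.369).

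Single arrays were also compared without a model. For 13 members, every SP600125 array was lower than each DMSO array of its batch, and this held in both batches (14.1%, against 21.1% of all genes). For 10 members, every SP600125 array was higher in the same sense (10.9%, against 10.2%). Over all 10 arrays, the groups did not overlap for 10 members with lower and 9 with higher SP600125 values, against 16.4% and 6.65% of all genes.

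Scaling was varied with cyclic loess, which removes differences between arrays that depend on signal. Among the members, 20 then fell and 5 rose, against 17.7% and 9.44% of all genes. Of the 24 falls, 16 were called under both scalings, and 4 further members fell only after loess. Falls of Kcnd2 (-0.12, adjusted p = 0.354), Kcnq3 (-0.14, adjusted p = 0.350), Kcnip3 (-0.15, adjusted p = 0.0752), Kcnh2 (-0.19, adjusted p = 0.0831), Kcnh1, Kcnh5, Kcnk1 and Kcnmb4 no longer passed. The 5 rises under both were Kcnk4 (0.43, adjusted p = 0.000501), Kcnn2 (0.39, adjusted p = 0.00202), Kcnmb3 (0.36, adjusted p = 0.0114), Kcnmb1 (0.32, adjusted p = 0.00695) and Kcnv2 (0.16, adjusted p = 0.0488). No member was called in opposite directions. Kcnn2 and Kcnmb3 were larger after loess but did not pass when arrays were centred on the median of all probe sets, which moved the median of all genes to -0.13. There Kcnn2 changed by 0.17 (adjusted p = 0.0550) and Kcnmb3 by 0.17 (adjusted p = 0.102).

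**Figure D4:**
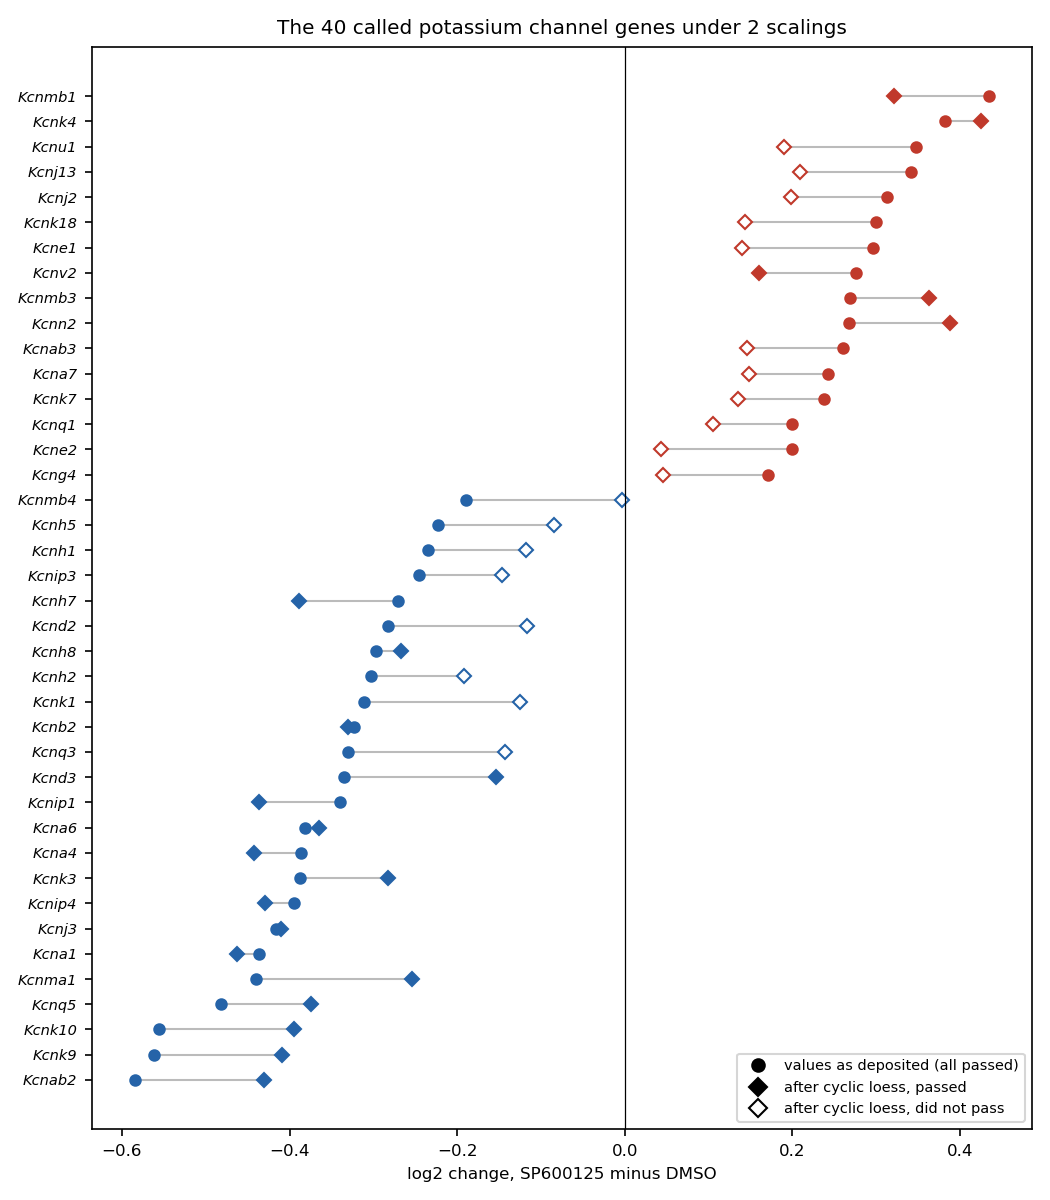
Log2 change (SP600125 minus DMSO) of the 40 called potassium channel genes, with circles for the values as deposited and diamonds after cyclic loess, filled where the gene still passed. Filled diamonds remain for 16 of 24 falls and for 5 of 16 rises.

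Across 18 alternatives, 17 members kept their call: 15 falls (16.3%, against 13.5% of all genes) and 2 rises (2.17%, against 5.05%). These alternatives were 4 scalings, 10 fits without 1 array each, and fits with a replicate block, without a batch term, without both b arrays and with trended and robust variance. The filter on dim genes, the mean of all probe sets of a gene, under which Kcnma1 lost its call, and the fits to single batches were not among them. The 15 falls that held were those of Kcna1, Kcna4, Kcna6, Kcnb2 and Kcnd3 among voltage-gated pores, Kcnj3, the leak channels Kcnk3, Kcnk9 and Kcnk10, Kcnq5, Kcnh8, Kcnma1, and the auxiliary Kcnab2, Kcnip1 and Kcnip4. The rises that held were those of Kcnk4 and Kcnmb1.

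The response was next compared between drug batches, through the interaction of treatment and batch. No member and no other gene passed at adjusted p under 0.05 (0.0% of all genes, limma). At an unadjusted p under 0.05 there were 20 members (21.7%), against 9.29% of all genes. Of these members, 19 had a more negative change in batch 2, all but Kcne1. The share of all genes with that direction is not given here, so the direction is not read as particular to the members. The smallest p-values were those of Kcnip1, the tandem-pore gene Kcnk12 and the modifier subunit Kcns1, with adjusted p of 0.478, 0.478 and 0.479 (limma). Kcnk12 changed by 0.33 in batch 1 and -0.14 in batch 2, and Kcns1 by 0.34 and -0.14. Within drug batch 2 alone, 28 members fell and 9 rose (all genes 27.3% and 11.1%), and their median change was -0.12, against -0.05 for all genes. Within drug batch 1 alone, with 2 arrays a group, 0 members were called by limma (all genes 0.00502% fell and 0.0% rose). At an unadjusted p under 0.05, 4 members were lower and 13 higher (all genes 12.8% and 11.8%), and the median was 0.08, against -0.01 for all genes. Replicate b is part of batch 1, and what part its arrays have in these differences was not tested.

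**Figure D5:**
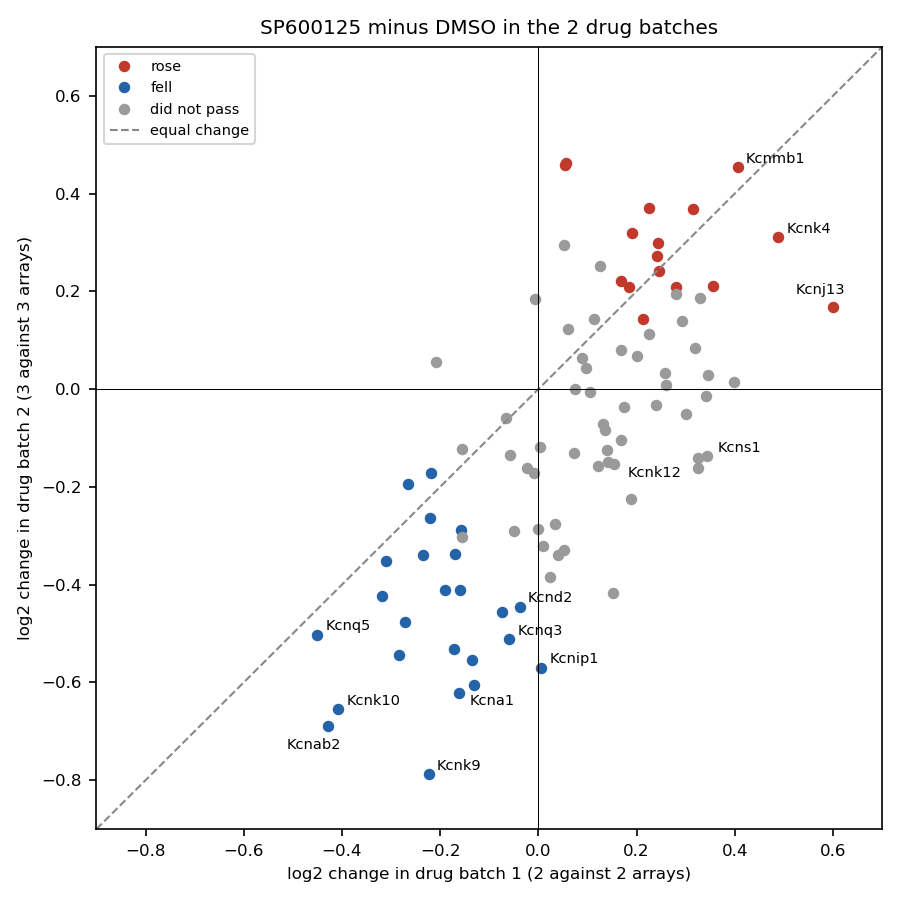
Log2 change (SP600125 minus DMSO) of the 92 potassium channel genes in drug batch 1 (horizontal axis, 2 against 2 arrays) and drug batch 2 (vertical axis, 3 against 3 arrays), coloured by the call over all arrays. Most falls lie below the dashed line of equal change, among them Kcnk9 (-0.22 and -0.79) and Kcnip1 (0.01 and -0.57).

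Genes whose products assemble with potassium channels or work beside them were read from a separate list. Of 30 measured, 19 fell, 3 rose and 8 did not pass, with a median change of -0.37. Of all genes, 29.9% fell and 17.0% rose. Of the 30, 25 were above the olfactory receptor range, where 47.3% of all genes fell and 7.93% rose. The 3 rises and the fall of Cntnap1 were in genes not above it, where 3.3% of all genes fell and 30.9% rose. All other falls in the list were above it. The largest changes were those of Lgi1, a secreted protein of Kcna complexes (-0.90, SE 0.19, adjusted p = 0.00251), Dpp10, an auxiliary subunit of Kcnd pores (-0.61, SE 0.12, adjusted p = 0.00159), Cntnap2, which clusters Kcna pores beside nodes of Ranvier (-0.57, SE 0.13, adjusted p = 0.00281), and Gnb5, a G-protein beta subunit that speeds closing of Kcnj3 channels (-0.55, SE 0.09, adjusted p = 0.000548). SP600125 b read above DMSO b in Lgi1, Dpp10 and Cntnap2, but not in Gnb5. Without both b arrays, Lgi1, Dpp10, Cntnap2 and Gnb5 changed by -1.21, -0.77, -0.78 and -0.67. By role, 5 of 6 Kcna complex genes, both Kcnd auxiliaries and all 3 regulators of G-protein-gated channels fell. So did all 3 anchors of the axon initial segment, all 3 measured beta subunits of the sodium pump and 3 of 4 measured genes of the HCN channel list. The anchor Nfasc (named after its values were seen) changed by -0.18, and by -0.01 after cyclic loess, where it did not pass. Rises were called in 2 of 4 gamma subunits of calcium-gated and related pores, Lrrc52 (0.51, adjusted p = 0.000194) and Lrrc26 (0.19, adjusted p = 0.0226), and in 1 of 2 sulfonylurea receptors, Abcc9 (0.24, adjusted p = 0.0321), all named after their values were seen. Lrrc52, Lrrc26 and Abcc9 all had signals within the olfactory receptor range. None of the 3 Kcnb partners passed, with changes of -0.07 to -0.10. Cyclic loess left 14 falls and 1 rise in the list, that of Lrrc52 (0.40, adjusted p = 0.00117, limma).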

How the data were processed

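The deposited table held log2 expression values for 35556 probe sets on 10 arrays, for which the submitters' processing notes name oligo 1.14.0. How background, normalization and summarization were handled is not stated in the sources used here, and the log2 scale was read from the values (1.90 to 13.8). Values were used as deposited. Of the probe sets, 21789 carried 1 symbol in the platform annotation, which can be old, 1621 several and 12146 none. All 92 members matched a RefSeq gene identifier (GRCm38.p6), with 0 symbol changes, and 3 had more than 1 probe set.

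Differences, SP600125 minus DMSO, came from two-sided tests in limma 3.58.1 under R 4.3.3 (linear fit and eBayes), with treatment and drug batch as terms, 7 residual degrees of freedom and Benjamini-Hochberg adjustment over 19938 genes. The number of arrays limits the precision. Data were simulated for 19938 genes with independent noise, and 67, 67 and 66 genes were changed by 0.25, 0.5 and 1. The fit recovered 23.9%, 83.6% and 100% of these changes, with 7 false calls. In the real comparison far more genes were called (29.9% fell and 17.0% rose), which loosens the adjusted threshold. The simulated rates therefore do not carry over to it.

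Members named were those changed by at least 0.4, the up to 3 largest called falls and rises of each subfamily or its largest change where none passed, a list of much-studied genes, the 3 smallest interaction p-values and the 4 largest called changes among partner genes. Members and lists were chosen with earlier results of these data known. Alternatives varied the scaling, batch term, replicate block, probe set rule, variance model, filter on dim genes and the arrays used.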

Additional observations from a re-analysis of the deposited data

Results flagged for a closer look

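Among 90 groups of 5 arrays tested over the named genes, 10 had a single array far from the other 4 (a gap above Dixon's 95% critical value), and 9 of the 10 arrays were replicate b. Chance gives about 1 in 20 such groups. In the SP600125 group, replicate b was far above the others in Kcna1 (5.94 log2), Kcnd2 (9.10 log2), Kcnip1 (5.60 log2) and Kcnk9 (9.53 log2). In the DMSO group, replicate b was far below the others in Kcnd2 (8.75 log2), Kcnk9 (9.14 log2) and Kcnq3 (7.56 log2), and far above them in Kcna7 (5.72 log2) and Kcnk18 (5.10 log2). The remaining array was DMSO replicate e, far below the others in Kcnq1 (5.20 log2).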

How the results depend on the processing

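Both counts moved with the processing. Shares of all genes are not given here for both centrings, quantile normalization or fits without 1 array. Those counts describe the processing and no trait of the members. Against 16 rises, there were 5 after cyclic loess, 4 after quantile normalization, 4 with centring on all probe sets, 21 with centring on named genes, 5 among genes above the olfactory receptor range, 9 in drug batch 2 alone and 0 in drug batch 1 alone (limma; 13 at unadjusted p under 0.05), and 10 to 17 when 1 array was left out. Against 24 falls, there were 36 with centring on all probe sets, 20 after loess, 21 with centring on named genes, 0 in drug batch 1 alone (4 unadjusted) and 20 to 29 when 1 array was left out. The median change of -0.0073 became -0.1081 with centring on all probe sets, 0.0269 with centring on named genes, -0.0743 after loess, -0.0864 after quantile normalization, 0.0814 in batch 1, -0.1204 in batch 2, -0.1766 above the olfactory receptor range, -0.0397 without both b arrays, and -0.0433 to 0.0312 when 1 array was left out. Partner genes that rose were 1, not 3, under loess, quantile normalization and centring on all probe sets. The causes were not tested.

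Signs turned mainly in genes that had not passed. With centring on all probe sets, loess, quantile normalization, batch 2 alone and no b arrays, the changes were -0.0115, -0.0514, -0.0613, -0.0512 and -0.0097 for Kcnrg, -0.0624, -0.1181, -0.1184, -0.0061 and -0.0062 for Kcnj6, and -0.0552, -0.0434, -0.0661, -0.1407 and -0.0521 for Kcnk12. For Kcns1 the first 4 of these gave -0.0459, -0.0934, -0.0942 and -0.1375. Kcnk2 was 0.0154 with centring on named genes, 0.1505 after loess, 0.1015 after quantile normalization and 0.1397 in batch 1, where Kcnmb4os2 was 0.0405 and Kcnip1, a called fall, was 0.0056. With 1 array left out, values ran from -0.0599 to 0.0195 for Kcnk2, from -0.0271 to 0.0862 for Kcnk12 and from -0.0274 to 0.1051 for Kcns1.

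For the letters a to e, the correlations of same-letter deviations from the group means were 0.03, -0.21, 0.08, -0.04 and 0.10. For deviations from the means of each group within its batch, they were -0.34, -0.34, -0.01, 0.04 and -0.05. Letters a and b share a value there because they are the only letters of their batch. These values gave no sign that arrays of the same letter deviate alike. So few arrays cannot settle whether the letters pair them. With the replicate block in place of the batch term, 15 members rose and 21 fell, with a median of -0.01 (shares of all genes not given here).

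Limits are the 5 arrays a group, the unstated normalization, the absence of detection calls, and a signal within the olfactory receptor range for 41 of the 92 genes.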
